A study of Mus musculus with 2 samples.

Results

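The genes described here encode the chains of collagens and laminins, the structural proteins of connective tissue and of basement membranes. They were chosen by name alone, as every gene whose symbol is Col, a number, a and a number, or Lam, one of the letters a, b and c, and a digit. This gave 55 of the 32285 genes listed, of which 44 were collagens and 11 laminins. They were kept in 3 sets, 11 fibrillar collagens, 21 chains of the basement-membrane side (6 type IV collagens, 11 laminins and 4 collagens of the zone next to the membrane) and 23 other collagens.

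Collagen alpha chains wind into helices of several chains, which are copies of a single chain in some types, such as III and XVII, and different chains in others, such as IV and VI. Laminins are assembled from an alpha, a beta and a gamma chain. Fibrillar collagens (types I, III and V among them) form the cable-like fibrils of stroma. Type IV collagen and laminin build the separate, interlinked sheets of a basement membrane, the thin layer on which an epithelium or a blood vessel stands. In the prostate, secretory luminal cells and the basal cells beneath them rest on such a membrane, with fibroblasts, smooth muscle and vessels on its other side.

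Single-cell 3′ mRNA libraries were made from the prostate of wild-type male C57BL6 mice, 1 from the ventral lobes with version 2 of the 10x Genomics kit and 1 from the proximal and periurethral region with version 3. Tissue was dissociated with papain and then TrypLE, and how many mice were pooled, or their age, is not given in the sources used here. Each region is thus 1 library, so no difference between regions or cell types has a replicate or a test, and the effect of region cannot be told apart from that of the kit. Intervals are exact 95% intervals that cover counting error only.

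The ventral library held 2221 barcodes with 49356586 UMIs (unique molecular identifiers, counts of captured mRNA molecules), and the proximal library 4344 barcodes with 97817603. Filters left 1988 ventral cells (median depth 25758.5 UMIs) and 3705 proximal cells (15260), and the libraries shared 0 barcodes. Cells were clustered without the collagen and laminin genes and named from markers that include none of them. Proximal classes were fibroblast-like (516 cells), basal-like (914), proximal-luminal-like (1129), distal-luminal-like (691) and endothelial-like (61), and the ventral ones basal-like (141), proximal-luminal-like (80) and distal-luminal-like (1643). No ventral cluster was named fibroblast-like or endothelial-like, so which cells carry the stromal chains can be read from the proximal library only. At least 25% of cells held a UMI of 9 of the 10 fibroblast markers in the fibroblast-like class, of all 7 basal markers in both basal-like classes, and of 7 or 8 of the luminal markers in each luminal class. The endothelial-like cluster carried all 10 of its markers. Its first leading gene was Ccl21a, a lymphatic vessel marker, followed by Flt1, Emcn and Cldn5, which are on the endothelial marker list. The 6 smooth-muscle-or-pericyte-like cells were too few to compare. Chain UMIs made up 0.0978% of proximal and 0.0121% of ventral UMIs.

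Levels are UMIs of a gene per 1000000 UMIs of the class (CPM), summed over its cells. Since 3′ UMI counts compare a gene between classes, levels of different genes are not ranked. A class was said to lead a gene where its log2(CPM + 10) lay at least 1 above that of every other class compared, among genes with at least 50 UMIs in those classes, with both luminal classes counted as 1 side. In the proximal library 44 of the 55 chains had 50 UMIs. Fibroblast-like cells led 20 of the 44, beside 4.32% of all genes, basal-like cells 3, beside 0.795%, endothelial-like cells 2, beside 3.34%, and luminal cells 0, beside 4.4%. No class led the other 19, beside 87.1%. In the 6 smooth-muscle-or-pericyte-like cells, not compared, basement-membrane-side chains summed to 2925 CPM (2530 to 3364) from 196 UMIs, beside 2398 in fibroblast-like cells. Basal markers summed to 5491 CPM in those 6 cells, and their part in that sum was not tested.

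**Figure D1:**
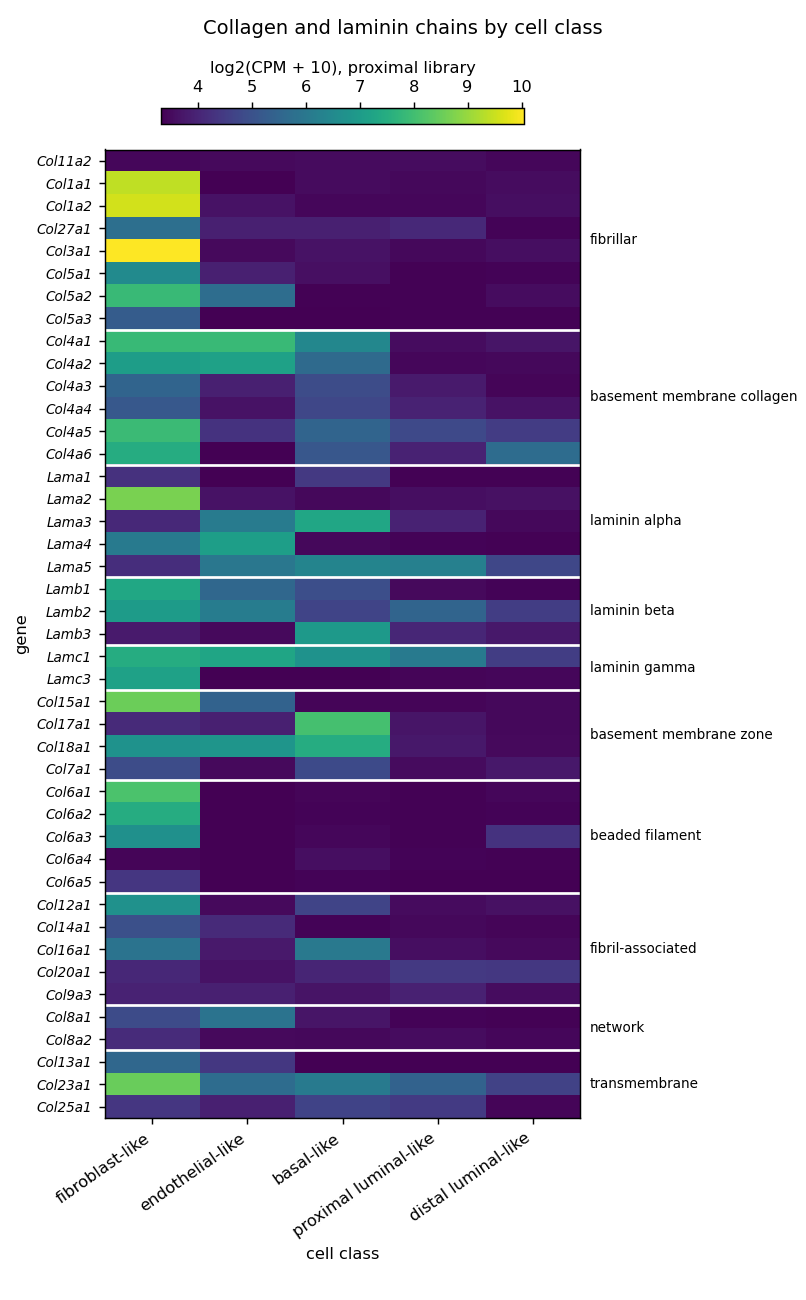
Levels of chains with at least 50 UMIs in the 5 classes of the proximal library, as log2(CPM + 10), grouped by family. The fibrillar and type VI chains shown are brightest in the fibroblast-like column except Col11a2 and Col6a4, which are low in every column, whereas type IV chains and laminins differ in their brightest columns from chain to chain.

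Most fibrillar chains counted in the proximal library were highest in fibroblast-like cells. Fibroblast-like cells led 7 of the 8 fibrillar chains counted, and the set summed to 2852 CPM there (2807 to 2897), 58.2 in endothelial-like, 14.5 in basal-like, 13.02 in proximal-luminal-like and 9.44 in distal-luminal-like cells. In macrophage-like cells, which should lack these chains, the sum was 16.3, so the epithelial sums were no higher than that. Col3a1, the single chain of type III collagen, stood at 1046 CPM (1019 to 1073) in fibroblast-like cells and between 1.14 and 2.51 in the other 4 classes. Col1a1, the main chain of type I collagen, stood at 667 CPM (645 to 689) in fibroblast-like cells. Its levels were 1.38, 1.08 and 1.76 in basal-like, proximal-luminal-like and distal-luminal-like cells, and no UMI was found in 61 endothelial-like cells. The partner chain Col1a2 had 751 CPM (728 to 775) against at most 2.48 elsewhere, and these 3 chains lay 5.85 to 6.40 above the next class on the log2 scale.

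The type V chains, which nucleate fibrils, followed with wider spread. Col5a2 had 226 CPM (213 to 239) in fibroblast-like and 43.3 (30.2 to 60.2) in endothelial-like cells, where 1 cell gave 45.7% of its UMIs. Col5a1 had 83.4 CPM against 4.95, and Col5a3 28.5 against 0.294. Col27a1, a chain of a thin-fibril collagen, had 44.7 CPM in fibroblast-like, 5.02 in basal-like and 7.01 in proximal-luminal-like cells. Col11a2 had no leading class, with 0.794 to 1.74 CPM in the 5 classes. Col11a1, Col2a1 and Col24a1, which include the main cartilage chain, had 25, 22 and 15 UMIs in the whole proximal library.

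Counted by cell, 506 of 516 fibroblast-like cells held a UMI of Col1a1, Col1a2 or Col3a1, and 353 held at least 10. After each cell was thinned to 1000 UMIs, 42.2% of fibroblast-like cells held a Col1a1 UMI (93.0% unthinned), against 0.109% of basal-like cells (1.42%) and 0 of 78 macrophage-like cells. Taken as 3 counts, that 0 allows up to 3.85% of cells with a UMI at this depth. Median depths before thinning were 10314 UMIs for fibroblast-like, 12052 for basal-like and 11922 for macrophage-like cells. In the distal-luminal-like class 99 of its 185 UMIs of these 3 chains came from 3 of 691 cells, so its low level rests on few cells. Doublets were mostly still present, since the caller marked only 11 of 5704 cells, and their part in such cells was not tested.

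Type IV collagen differed by class from chain to chain. Col4a1 and Col4a2 were found in fibroblast-like, endothelial-like and basal-like cells, whereas endothelial-like cells had 4, 2, 8 and 0 UMIs of Col4a3, Col4a4, Col4a5 and Col4a6 (4.95, 2.48, 9.90 and 0 CPM). Its 6 chains are encoded by 3 head-to-head gene pairs. In the GENCODE M21 annotation of GRCm38, the starts of Col4a1 (chr8:11198423-11312826, minus strand) and Col4a2 lie 21 bases apart on opposite strands, those of Col4a4 and Col4a3 lie 72 bases apart, and those of Col4a6 (chrX:141165403-141474076, minus strand) and Col4a5 lie 1309 apart. The promoter windows of 2 pairs are printed because the members of the first went together over cell classes and those of the second did not. They run from 250 bases before to 50 after the start, are taken from RefSeq (GRCm38.p6), and carry in capitals any match on either strand to the CCAAT box, to the GC box (GGGCGG) or to the TATA box (TATAAA).
Col4a1, chr8:11312777-11313076, minus strand: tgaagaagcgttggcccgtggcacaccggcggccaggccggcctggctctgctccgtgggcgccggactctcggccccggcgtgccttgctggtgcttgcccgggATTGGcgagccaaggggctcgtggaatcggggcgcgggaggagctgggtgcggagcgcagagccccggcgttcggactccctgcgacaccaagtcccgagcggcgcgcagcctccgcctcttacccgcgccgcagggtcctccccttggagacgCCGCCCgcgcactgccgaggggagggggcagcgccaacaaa
Col4a2, chr8:11312555-11312854, plus strand: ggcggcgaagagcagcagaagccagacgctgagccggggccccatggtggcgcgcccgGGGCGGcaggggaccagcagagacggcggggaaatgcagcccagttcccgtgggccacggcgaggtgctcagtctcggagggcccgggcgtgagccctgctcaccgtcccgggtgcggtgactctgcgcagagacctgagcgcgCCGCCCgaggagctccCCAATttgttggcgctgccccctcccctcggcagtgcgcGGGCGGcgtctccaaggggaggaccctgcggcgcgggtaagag
Col4a6, chrX:141474027-141474326, minus strand: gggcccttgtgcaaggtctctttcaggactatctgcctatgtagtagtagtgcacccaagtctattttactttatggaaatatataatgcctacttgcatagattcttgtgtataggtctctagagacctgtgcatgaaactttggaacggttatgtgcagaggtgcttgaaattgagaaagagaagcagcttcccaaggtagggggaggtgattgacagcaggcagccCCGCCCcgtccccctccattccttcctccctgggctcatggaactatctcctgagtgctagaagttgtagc
Col4a5, chrX:141475169-141475468, plus strand: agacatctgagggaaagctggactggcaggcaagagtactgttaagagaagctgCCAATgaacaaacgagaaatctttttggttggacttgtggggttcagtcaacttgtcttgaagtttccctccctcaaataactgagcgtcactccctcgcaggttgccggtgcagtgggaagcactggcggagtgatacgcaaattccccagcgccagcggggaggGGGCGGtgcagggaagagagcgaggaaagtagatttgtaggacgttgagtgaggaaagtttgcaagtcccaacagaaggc
The Col4a1 window holds 1 CCAAT box and 1 GC box, and the Col4a2 window, which overlaps it, 1 CCAAT box and 3 GC boxes. The Col4a5 window holds 1 of each, and the Col4a6 window 1 GC box. Among 32851 promoter windows of the same length, 37.4% held a CCAAT box, 35.7% a GC box and 13.6% a TATA box, so these matches are common and describe only the letters. Of the 40 chains with an entry used here, 14 held a CCAAT box, 25 a GC box and 5 a TATA box.

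Col4a1 and Col4a2, the chains of the common type IV network, had the same order of classes. Col4a1 stood at 225 CPM (194 to 260) in endothelial-like, 223 (210.5 to 236) in fibroblast-like and 77.2 (72.3 to 82.2) in basal-like cells, and at 1.60 and 2.91 in proximal-luminal-like and distal-luminal-like cells. Col4a2 stood at 135 (111 to 163), 123 (114 to 133) and 40.0 (36.5 to 43.7) in the first 3 of these and under 1 CPM in both luminal classes. Endothelial-like and fibroblast-like levels of both chains overlapped within counting error. Of the UMIs of the pair, Col4a1 made up 64.4% (62.2 to 66.6) in fibroblast-like, 65.9% (63.4 to 68.3) in basal-like and 62.5% (56.7 to 68.1) in endothelial-like cells, which do not differ beyond their intervals. Among distal-luminal-like cells Col4a1 gave 99 UMIs and Col4a2 33, a share whose interval of 66.7% to 82.1% starts just above the fibroblast-like one. Thinned to 1000 UMIs, 16.3% of fibroblast-like, 23.3% of endothelial-like and 6.02% of basal-like cells held a Col4a1 UMI, against 0 of 78 macrophage-like cells (68.0%, 72.1%, 45.5% and 5.06% unthinned).

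Col4a3 and Col4a4, chains of a network known best from kidney and lung, were led by no class. Col4a3 had 34.6 CPM (29.8 to 39.9) in fibroblast-like and 19.5 (17.1 to 22.1) in basal-like cells, and Col4a4 had 26.3 (22.2 to 31.0) and 16.8 (14.6 to 19.2). Both fibroblast-like values pool unlike clusters, with 68.0 and 52.0 CPM in cluster 10 against 8.80 and 6.52 in cluster 15. Col4a3 gave 56.8% (51.3 to 62.2) of the pair in fibroblast-like and 22.7% (15.3 to 31.7) in distal-luminal-like cells.

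Col4a5 and Col4a6, which assemble together in the membranes of skin and of smooth muscle, parted in the luminal cells. Col4a5 had 227 CPM (215 to 240) in fibroblast-like, 35.1 (31.8 to 38.5) in basal-like, 18.1 (16.8 to 19.6) in proximal-luminal-like and 12.9 (11.7 to 14.1) in distal-luminal-like cells. Col4a6 had 169 CPM (158 to 180.2) in fibroblast-like and 42.0 (39.8 to 44.2) in distal-luminal-like cells, more than the 25.5 (22.8 to 28.5) of basal-like and the 5.70 (4.94 to 6.54) of proximal-luminal-like cells. Col4a6 thus gave 42.6% (40.5 to 44.7) of the pair in fibroblast-like and 42.1% (38.5 to 45.7) in basal-like cells, but 76.5% (74.5 to 78.4) in distal-luminal-like and 23.9% (21.04 to 26.9) in proximal-luminal-like cells.

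The distal-luminal-like Col4a6 came from particular clusters. In cluster 5, led by Ren1 and Tgm4, it reached 117 CPM (111 to 124), and in cluster 16, led by Prr9 and Gpx3, 61.7 (53.2 to 71.1). In cluster 9, led by Msmb, it was 5.63 (4.32 to 7.22), and in cluster 3, led by Spink5 and Scgb2b7, 1.00 (0.480 to 1.84). The levels of clusters 5 and 16 lay above those of clusters 9 and 3 by far more than counting error. After thinning, 5.54% of distal-luminal-like cells held a Col4a6 UMI (44.1% unthinned, median depth 48894), against 0 of 78 macrophage-like cells (1.27% unthinned). Summed fibroblast markers stood at 112 CPM in the distal-luminal-like class with all 10 found and Dcn giving 3609 of 3801 UMIs. Their part in the Col4a6 level was not tested.

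**Figure D2:**
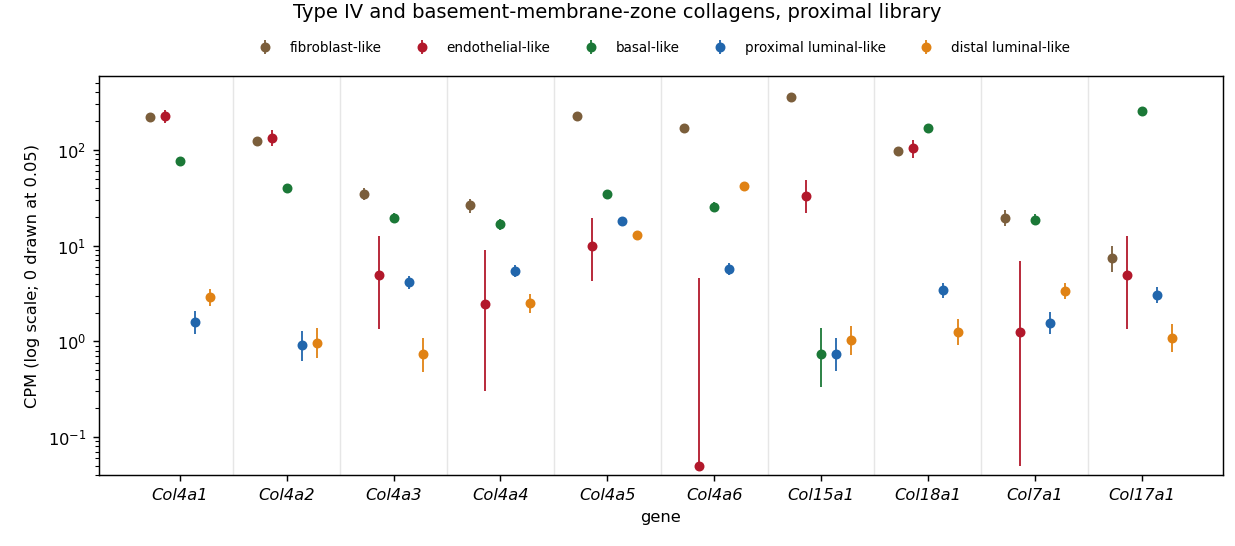
CPM on a log axis of the 6 type IV chains and the 4 basement-membrane-zone collagens in the 5 classes of the proximal library, with points for levels, bars for exact 95% counting intervals and a level of 0 drawn at 0.05. Col4a1 and Col4a2 keep the same order of classes, Col4a6 is higher in distal-luminal-like than in basal-like cells, and Col15a1 is highest in fibroblast-like cells and Col17a1 in basal-like cells.

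Of the 4 collagens of the zone next to the membrane, basal-like cells led Col17a1, fibroblast-like cells led Col15a1, and no class led Col18a1 or Col7a1. Col17a1, a transmembrane collagen of hemidesmosomes, the rivets that fix basal cells to the membrane, stood at 258 CPM (249.6 to 268) in basal-like and at most 7.36 in the other 4 classes. Col15a1, found on the stromal face of basement membranes, stood at 360.1 CPM (344 to 376) in fibroblast-like, 33.4 (22.02 to 48.6) in endothelial-like and 0.729 in basal-like cells. Of the endothelial-like Col15a1 UMIs, 51.9% came from 1 cell. Col18a1, a proteoglycan collagen of vessel and epithelial membranes, was high in basal-like (170.4, 163 to 178), endothelial-like (104, 82.9 to 129) and fibroblast-like cells (97.7, 89.6 to 106), and it was at 3.45 and 1.26 in the luminal classes. Col7a1, the anchoring fibril chain, had 19.7 CPM (16.1 to 23.8) in fibroblast-like and 18.7 (16.4 to 21.3) in basal-like cells, which overlap. The Col17a1 window is shown because its gene had the largest lead of the 3 that basal-like cells led, and it holds 2 TATA boxes and 1 CCAAT box.
Col17a1, chr19:47691993-47692292, minus strand: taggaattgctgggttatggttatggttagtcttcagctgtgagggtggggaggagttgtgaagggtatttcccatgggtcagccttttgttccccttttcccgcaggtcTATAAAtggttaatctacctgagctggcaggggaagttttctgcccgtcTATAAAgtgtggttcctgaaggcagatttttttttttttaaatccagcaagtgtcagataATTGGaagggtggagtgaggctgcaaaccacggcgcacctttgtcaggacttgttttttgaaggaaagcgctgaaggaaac

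Laminin alpha chains, which bind the receptors of a cell, differed widely between classes. Lama2, the alpha chain of muscle and stroma, stood at 407 CPM (390.2 to 424) in fibroblast-like and at most 2.48 in the other classes. Lama3, the alpha chain that hemidesmosomes hold, stood at 147 (140.4 to 154) in basal-like, 59.4 (43.8 to 78.8) in endothelial-like and 5.61 in proximal-luminal-like cells. Lama4, the vessel alpha chain, stood at 125 (102 to 152) in endothelial-like and 56.9 (50.7 to 63.6) in fibroblast-like cells and near 1 or below in the epithelium. Basal markers summed to 78.0 CPM in the endothelial-like class, with Trp63 and Lgals7 at 0, and Lamb3 and Col17a1 at 1.24 and 4.95 there. Krt15 gave 53 of those 63 basal-marker UMIs, and the other basal markers summed to 12.4 CPM. The lead of Lama4 was 1.01 on the log2 scale and 0.67 without the cell richest in it, which held 25.7% of its UMIs, so its call rests on that cell, and it was 0.62 when each cell was named by its marker level. The lead of Lama3 was 1.18 and became 0.89 with every cell weighted equally.

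Lama5, the broad epithelial and vascular alpha chain, was shared. It had 72.5 CPM (67.9 to 77.5) in basal-like, 65.5 (62.8 to 68.2) in proximal-luminal-like and 53.2 (38.5 to 71.7) in endothelial-like cells, but 17.1 in distal-luminal-like and 8.28 in fibroblast-like cells. Lama1, the alpha chain of embryonic membranes, was low, with 11.8 (9.98 to 13.9) in basal-like and 9.38 (6.99 to 12.3) in fibroblast-like cells. Lama1 stood at 0.342 and 0.353 CPM in the proximal-luminal-like and distal-luminal-like cells of the proximal library.

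Of the beta chains, Lamb3, the partner of Lama3, stood at 113 CPM (107 to 119) in basal-like and at most 6.52 in the other 4 classes, and Lamb1, found in many tissues, at 152 (141 to 162) in fibroblast-like, 37.1 in endothelial-like and 20.7 in basal-like cells. Lamb2, the beta chain of muscle, nerve and kidney membranes, was at 118 (109.5 to 128) in fibroblast-like, 60.6 in endothelial-like, 15.9 (13.7 to 18.3) in basal-like and 35.3 (33.3 to 37.3) in proximal-luminal-like cells. Lamb1 made up 56.1% of the Lamb1 and Lamb2 UMIs in fibroblast-like and 56.6% in basal-like cells, but 3.36% (2.44 to 4.495) in proximal-luminal-like and 3.78% in distal-luminal-like cells. The share of Lamb1 was thus lower in both luminal classes than in fibroblast-like and basal-like cells.

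Lamc1, the gamma chain of most laminins, was found in every class, from 169 CPM (158 to 180.4) in fibroblast-like and 146 (121 to 175) in endothelial-like to 98.5 in basal-like, 57.7 in proximal-luminal-like and 13.1 in distal-luminal-like cells. Macrophage-like cells had 61.0 (46.5 to 78.5), an interval that holds the proximal-luminal-like level. Lamc3 stood at 133 (123 to 143) in fibroblast-like and under 1 CPM in all 4 others.

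Lamb3 was also found outside the compared classes. The 27 proximal T-or-NK-like cells had 107 CPM (67.8 to 160.5), from 23 UMIs in 14 cells, and the 27 ventral ones had 17.4 CPM, from 7 UMIs in 5 cells. Basal markers summed to 139 CPM in the proximal T-or-NK-like class, with Trp63 and Dlk2 at 0, and to 0 in the ventral one. In the proximal class Krt15 gave 23 of their 30 UMIs, and the other basal markers summed to 32.5 CPM. Lamb3 (chr1:193207699-193343878, plus strand) overlaps 4930570N18Rik on the same strand in GENCODE M21, and the effect of that overlap on its count was not tested.

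**Figure D3:**
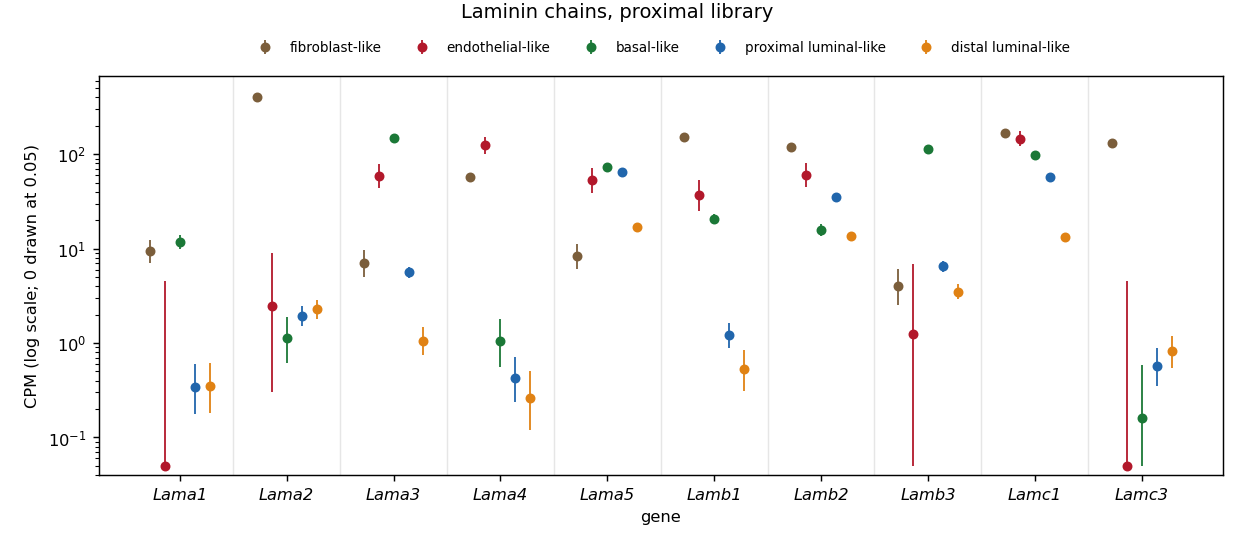
CPM on a log axis of laminin chains in the 5 classes of the proximal library, with points for levels, bars for exact 95% counting intervals and a level of 0 drawn at 0.05. Lama2 and Lamc3 stand high in fibroblast-like cells alone, Lama3 and Lamb3 are highest in basal-like cells, and Lama5 is alike in basal-like, proximal-luminal-like and endothelial-like cells.

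Among the remaining collagens, fibroblast-like cells led Col6a1, Col6a2, Col6a3, Col6a5, Col12a1, Col13a1 and Col23a1, endothelial-like cells led Col8a1, and no class led the other 7 of the 15 counted. Type VI collagen forms beaded filaments around cells. Col6a1 had 273 CPM (259 to 287), Col6a2 167 (157 to 179) and Col6a3 92.9 (85.0 to 101) in fibroblast-like cells, and Col6a1 and Col6a2 were under 1 CPM in the 4 other classes. Col6a5 had 11.0 CPM in fibroblast-like cells, 53.3% of it from 1 cell, and its lead was 0.55 without that cell.

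Col12a1, a collagen on the surface of fibrils, had 96.2 CPM (88.2 to 105) in fibroblast-like and 16.1 (13.95 to 18.5) in basal-like cells. Col16a1, also fibril-associated, was shared between basal-like (56.3, 52.2 to 60.6) and fibroblast-like cells (48.9, 43.2 to 55.2). Col23a1, a transmembrane collagen, had 353 CPM (337 to 369) in fibroblast-like, 58.5 in basal-like, 42.1 in endothelial-like, 33.2 in proximal-luminal-like and 15.2 in distal-luminal-like cells. Col20a1 and Col9a3 were low, at 2.48 to 11.6 and 1.62 to 5.52 CPM, and the first overlaps another listed gene on its strand. Col20a1 had 11.6 CPM (10.5 to 12.8) in proximal-luminal-like and 6.15 (4.85 to 7.70) in basal-like cells. Col8a1, a network-forming collagen of vessels, had 49.5 CPM (35.4 to 67.4) in endothelial-like and 19.0 (15.5 to 23.0) in fibroblast-like cells, with 40% from 1 endothelial-like cell and a lead of 0.57 without it in place of 1.04. Col13a1 and Col25a1, both transmembrane, peaked at 37.4 CPM in fibroblast-like and 15.6 in basal-like cells, and the lead of Col13a1, 1.16, was 0.78 with cells weighted equally. Among the 5 classes compared, Col8a2 and Col6a4 reached at most 7.73 and 1.78 CPM, and Col14a1 21.3 in fibroblast-like cells, below its 38.6 in macrophage-like cells, which were not compared.

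Unlike its partners, Col6a3 was present in luminal cells. In ventral distal-luminal-like cells it stood at 45.9 CPM (44.0 to 47.9), with 2087 UMIs in 756 of 1643 cells, where Col6a1 and Col6a2 had 0 UMIs. Ventral basal-like cells had 2.76 (0.334 to 9.96), and 9 of 10 ventral distal-luminal-like clusters had between 17.4 and 74.7 CPM. The exception was cluster 2, led by Msmb and Pbsn, with 3.89 (1.94 to 6.97). In the proximal library Col6a3 was found in distal-luminal-like cluster 3 at 31.1 CPM (27.8 to 34.8), from 311 UMIs, and at 0.178 to 1.09 in every other luminal cluster. Col6a3 gave 25.4% (23.5 to 27.4) of the Col6a3 and Col6a1 UMIs in fibroblast-like cells and 100% (99.8 to 100) in ventral distal-luminal-like cells. These shares come from different libraries, so class cannot be told apart there from region and kit. Within the proximal library, distal-luminal-like cells had 9.76 CPM of Col6a3 and 0.764 of Col6a1.

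After thinning, 69 of 1642 ventral distal-luminal-like cells held a Col6a3 UMI (46.0% unthinned, median depth 27491), against 0.714% of ventral basal-like cells (1.42%) and 0 of 29 macrophage-like cells, which by the same 3 counts allows up to 10.3% of cells with a UMI at this depth. Unthinned, 1 of those 29 held all 12 macrophage UMIs of the gene, 89.3 CPM of that small class, and the macrophage median depth was 3746. Of the 10 fibroblast markers, 8 were found in ventral distal-luminal-like cells, at 57.3 CPM, with Pdgfra and Mfap4 at 0. Dcn gave 2588 of those 2607 UMIs and the others 0.418 CPM, and their part in the Col6a3 level was not tested. Col6a3 lies at chr1:90765923-90843971, minus strand, with no other listed gene on that strand across it. Its promoter window is shown because its UMIs came without those of its partners, and it holds none of the 3 motifs.
Col6a3, chr1:90843922-90844221, minus strand: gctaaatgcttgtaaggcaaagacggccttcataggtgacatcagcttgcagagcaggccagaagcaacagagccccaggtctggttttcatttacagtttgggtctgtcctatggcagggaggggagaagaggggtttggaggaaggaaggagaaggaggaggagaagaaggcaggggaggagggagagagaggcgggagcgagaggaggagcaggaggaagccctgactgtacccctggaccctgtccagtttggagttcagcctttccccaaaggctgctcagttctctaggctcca

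**Figure D4:**
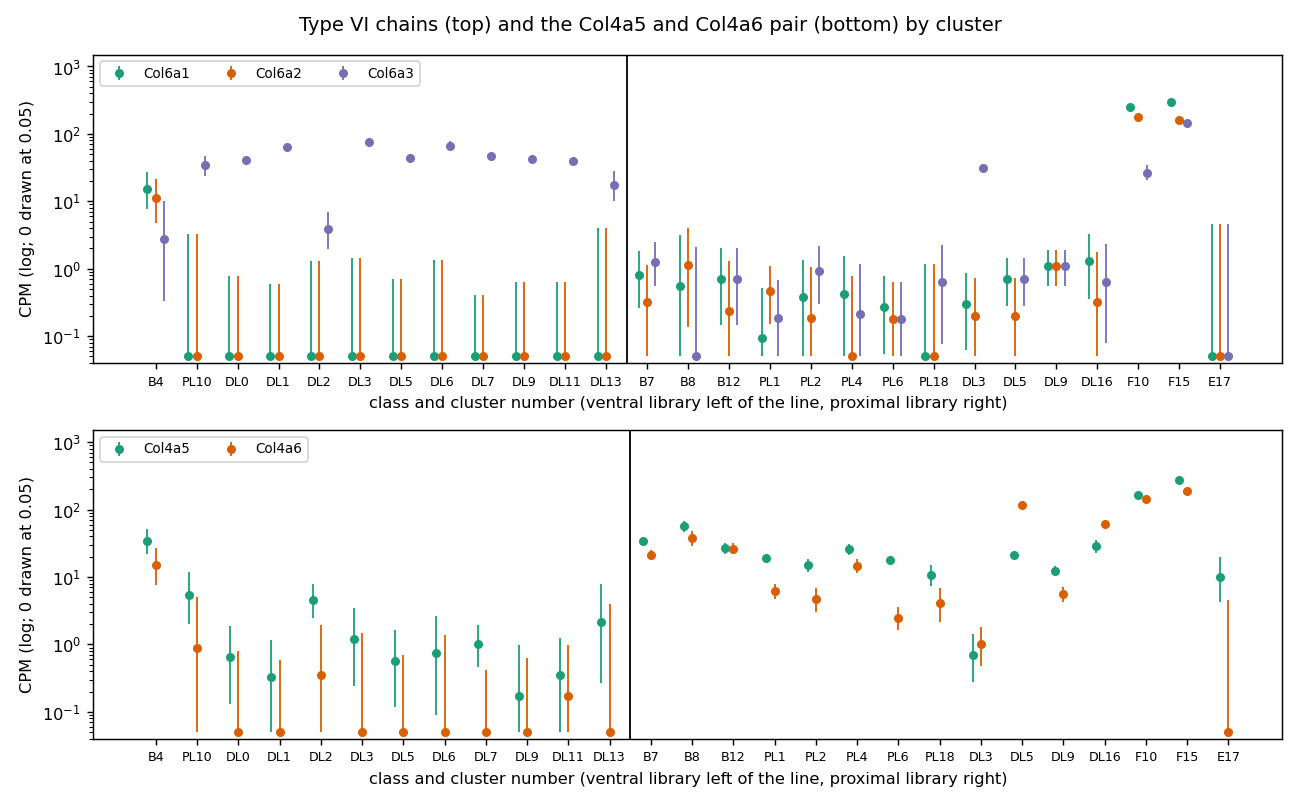
CPM on a log axis of Col6a1, Col6a2 and Col6a3 (top) and of Col4a5 and Col4a6 (bottom) in each cluster of at least 20 cells, ventral clusters left of the line and proximal right (B basal-like, PL proximal-luminal-like, DL distal-luminal-like, F fibroblast-like, E endothelial-like, then the cluster number), with exact 95% counting intervals and 0 drawn at 0.05. Col6a3 stands alone in ventral DL clusters and in proximal cluster DL3, and Col4a6 is higher in proximal clusters DL5 and DL16 than in DL3 and DL9.

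The fibroblast-like class held 2 clusters with different matrix chains. Cluster 10 (253 cells) was led by Cxcl14, Wif1, Rorb and Wnt2, and cluster 15 (263 cells) by Dpt, Inmt, Fbln1 and Clec3b. Of 35 chains with 50 UMIs, 7 were at least 1 higher on the log2 scale in cluster 10, beside 2.48% of all genes, and 6 were higher in cluster 15, beside 3.92%. Cluster 10 was higher for Lamc3 (245 against 46.0 CPM), Lamb1 (236 against 86.4), Col4a3 (68.0 against 8.80), Col4a4 (52.0 against 6.52), Col13a1 (71.4 against 11.1), Col7a1 (32.1 against 10.1) and Lama1 (17.3 against 3.26). Apart from Col13a1, these are all chains of the basement-membrane side. Cluster 15 was higher for Col3a1 (1533 against 414), Col6a3 (144 against 26.6), Col12a1 (137 against 43.5), Col14a1 (33.3 against 5.91), Col8a1 (31.0 against 3.38) and Col6a5 (17.6 against 2.53), none of which is of that side. Col4a1 (226 and 220.4) and Col15a1 (361 and 359, ratio 1.01, 0.918 to 1.10) were at like levels in both. Among chains not called the sides were mixed. Lamc1 (215 against 110 CPM), Lama4 (71.7 against 37.6) and Lamb2 (129 against 104) were higher in cluster 15. So were Col4a5 (277 against 163) and Col4a6 (188 against 144). Lama2 (512 against 326), Col4a2 (135 against 114) and fibrillar Col27a1 (59.6 against 33.3) and Col5a3 (38.0 against 21.2) were higher in cluster 10. Fibrillar Col1a1, Col1a2, Col5a1 and Col5a2 were higher in cluster 15. Col4a3 and Col4a4 thus had a leading cluster within the class though no class led them.

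The basal-like class held 3 clusters, cluster 7 (505 cells, led by Krt14), cluster 8 (186, led by Trp63 and Fmod) and cluster 12 (223, led by Ivl, Grp, Aqp3 and Krt6a). Clusters 7 and 8 were higher than cluster 12 for Col4a1, Col4a2 and Col18a1, and cluster 12 was higher for Col17a1. Col4a5 (34.5, 56.7 and 26.9 CPM in clusters 7, 8 and 12) and Col4a6 (21.4, 37.6 and 26.4) were not called in any of these comparisons. Cluster 7 over cluster 12 was higher for 7 of 23 chains, beside 3.54%, and lower for 1, beside 3.88%. Col18a1 stood at 249, 239 and 26.0 CPM in clusters 7, 8 and 12, Col4a1 at 117, 73.5 and 19.9, and Col16a1 at 83.9, 67.9 and 10.8. Col17a1 stood at 186, 75.2 and 441, and Lama3 at 162, 70.2 and 158. Lamb3 varied less, at 129, 94.8 and 97.6. Cluster 8 over cluster 12 was higher for 8 of 20 chains, beside 9.37%, and lower for 3, Lama3 and Col17a1 among them, beside 9.73%. Cluster 7 over cluster 8 was higher for the same 3 of 23, beside 2.58%, and lower for 0, beside 2.56%. Lama3 and Col17a1 were thus lowest in cluster 8, and Col4a1 was lowest in cluster 12.

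**Figure D5:**
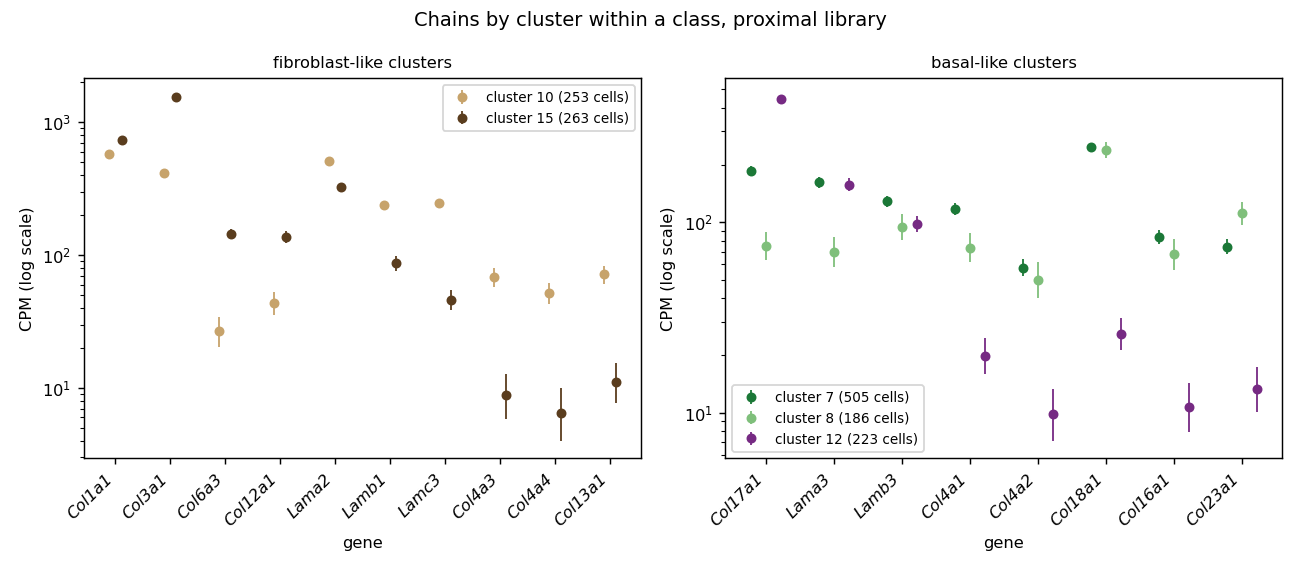
CPM on a log axis of chosen chains in the 2 fibroblast-like clusters (left) and the 3 basal-like clusters (right) of the proximal library, with exact 95% counting intervals. Cluster 15 has 1533 CPM of Col3a1 against 414 in cluster 10, and basal-like cluster 12 has 26.0 CPM of Col18a1 against 249 in cluster 7.

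In the ventral library 13 chains had 50 UMIs in the 3 classes compared. Basal-like cells led 7, beside 4.91% of all genes, luminal cells led Col6a3 alone, beside 11.7%, and 5 had no leading class, beside 83.4%. Col18a1 was the chain with the widest lead, at 296 CPM (258 to 339) in basal-like cells and 0.898 and 0.770 in proximal-luminal-like and distal-luminal-like cells. Lamb3 stood at 146 (119.6 to 177), 0 and 0.352 in the same order, Col4a1 at 73.1 (54.7 to 95.6), 8.08 and 2.18, and Col23a1 at 48.2, 0 and 0.880. Col4a4 (27.6 in basal-like cells), Col4a5 (34.5) and Col7a1 (16.5) also had basal-like cells in the lead, though Col4a4 and Col7a1 lost it under at least 1 alternative (lowest 0.93 and 0.82). The lead of luminal cells for Col6a3, 2.13, was -0.50 when each cell was named by its marker level. That naming put 59 ventral cells in the endothelial-like class, which was then compared, and left 860 distal-luminal-like cells in place of 1643. Which change moved the lead was not tested.

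The ventral basal-like class was not all basal. Of its 141 cells, 6 held no UMI of the 7 basal markers and between 25 and 84 UMIs of the 10 fibroblast markers, and these 6 held 48 of its 51 UMIs of Col1a1, Col1a2 and Col3a1. Over the whole class all 10 fibroblast markers were found, at 5445 CPM, and basal markers summed to 4884 CPM. Most of those fibroblast-marker UMIs lay outside the 6 cells, which held 320 of 3950, and Dcn alone gave 3779. Proximal basal-like cells carried Dcn too, with 16394 of their 16528 fibroblast-marker UMIs and 1338 CPM over the list. Without the 6 cells Col1a2, Col6a1 and Col6a2 had 0 UMIs in the class, against 33.1, 15.2 and 11.0 CPM with them, and Col3a1 had 2.83 CPM against 27.6. The 7 chains led by basal-like cells stayed 7 in number, with Col18a1 at 303, Lamb3 at 150.2 and Col4a1 at 73.7. Lamb2 was at 18.4 CPM in place of 26.2, against 49.4 in proximal-luminal-like cells, which gave luminal cells 2 chains.

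Between the libraries, chains of basal-like cells differed for 6 of 24, in each direction about as often as all genes tested. Higher by at least 1 on the log2 scale in the proximal library were 4, beside 17.2% of all genes, among them Col17a1 (258 against 42.7 CPM, ratio 6.05, 4.25 to 8.92), Lama3 (147 against 45.5, ratio 3.23) and Lamc1 (98.5 against 31.7, ratio 3.11). Higher in the ventral library were Col3a1 and Col27a1, 2 beside 8.03%. Without the 6 cells neither passed 1, the log2 ratio of Col3a1 being -0.04 in place of -1.59. Col27a1, at -1.03 with them, was then at 19.8 CPM against 5.02 in proximal cells, just short of 1. No type IV chain was called, with ratios from 0.608 (Col4a4, 0.384 to 1.02) to 1.68 (Col4a6, 0.927 to 3.40). That of Col4a1 was 1.06 (0.801 to 1.42) and that of Col4a2 0.645 (0.475 to 0.896). Col18a1 was not called either, at 170.4 against 296 CPM (ratio 0.575, 0.4995 to 0.665). The proximal class pools 3 clusters and the ventral class is 1, so these ratios move with the mix of clusters. Beside the ventral 296, Col18a1 had 249, 239 and 26.0 CPM in proximal clusters 7, 8 and 12, and beside the ventral 42.7, Col17a1 had 186, 75.2 and 441. The median log2 ratio of the 24 was 0.19, beside 0.16 over all genes tested.

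In proximal-luminal-like cells 2 of 25 chains were higher in the proximal library, beside 9.01%, among them Col23a1 (33.2 CPM against 0 UMIs in the ventral library). Col6a3 was higher in the ventral one (34.1 against 0.342), 1 beside 4.88%. Of the 80 ventral cells of this class, 22 had more than 5% of UMIs in Sbp and Spink1, main secretory genes of the ventral lobe, and without them the log2 ratio of Col6a3 was -0.50 in place of -2.09. In distal-luminal-like cells Col4a6 (42.0 against 0.0440, from 1427 and 2 UMIs), Col23a1 (15.2 against 0.880) and Col4a5 (12.9 against 0.880) were higher in the proximal library, 3 of 22 beside 8.36%. Col6a3 was higher in the ventral library (45.9 against 9.76), 1 beside 0.384%. These classes hold different clusters in the 2 libraries, and Sbp and Spink1 took 45.7% of ventral and 16.2% of proximal distal-luminal-like UMIs.

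A list of 64 genes that fold, cut, link, bind and degrade these chains was read by the same rule. In the proximal library 60 were counted, of which fibroblast-like cells led 21, basal-like cells 4, luminal cells 2, endothelial-like cells 1 and no class 32. Over all genes tested the shares were 4.32%, 0.795%, 4.4%, 3.34% and 87.1% in the same order, so the luminal and endothelial-like counts are near or below the background. Of the partners in basement membrane assembly, fibroblast-like cells led 3 and basal-like cells 1 of 11. Sparc, a collagen-binding protein, stood at 1569.9 CPM in fibroblast-like and 379.97 in endothelial-like cells, Nid1, the linker between laminin and type IV collagen, at 146 and 32.2, and Agrn, a laminin-binding proteoglycan, at 86.4 in basal-like and 21.9 in proximal-luminal-like cells. Among 13 folding and hydroxylation genes, Serpinh1, the collagen chaperone, stood at 601 CPM in fibroblast-like against 228 in the next class. The luminal side led P4hb (539 in distal-luminal-like against 240.1) and Ppib (1003 against 482), which also fold other secreted proteins.

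Of 10 counted genes for propeptide cleavage and crosslinking, fibroblast-like cells led 6, among them Pcolce (134 CPM against 13.8), Adamts2 (119.6 against 5.26) and Loxl1 (103 against 0.972). Of 12 receptors they led only Ddr2, a receptor of fibrillar collagen (168 against 14.8), while basal-like cells led Itga3 (73.3 against 26.0) and Itga2 (66.7 against 12.4), integrin chains that bind laminin and collagen. Itga6 and Itgb4, the hemidesmosome integrin, were highest in basal-like cells at 294 and 129 CPM, with 213 in endothelial-like and 81.3 in proximal-luminal-like cells next, and no class led them. Of 7 fibril partners fibroblast-like cells led 4, among them Bgn (1359.98 against 137), Fbn1 (198 against 30.9) and Tnxb (107 against 7.43), and basal-like cells led Fmod (84.0 against 6.62). Of 7 counted turnover genes fibroblast-like cells led 4, among them Timp2 (788 against 369.7), Mmp2 (369 against 5.18) and Mmp14 (123 against 38.3). In the ventral library 28 of the 64 were counted, and basal-like cells led 13, luminal cells P4hb and no class 14, beside 4.91%, 11.7% and 83.4% of all genes tested.

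Over the 17 proximal clusters of at least 50 cells and 12815 genes, the genes most alike in log2(CPM + 10) were, for Col1a1, C1qtnf7 (Pearson r 0.999), Hand2os1 (0.999) and Prrx1 (0.999), and for Col4a1 its head-to-head neighbour Col4a2 (0.994), Fat4 (0.989) and Gem (0.978). For Lamb3 they were Tns4 (0.982), Cyp2s1 (0.978) and Cdh3 (0.971), and for Lamc1 Ski (0.971) and Rab21 (0.964). These are descriptions over clusters of 1 library that share its depth and, for Col1a1, only 2 fibroblast-like clusters.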

How the data were processed

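The authors deposited unnormalized UMI counts, which are whole numbers for each gene in each barcode. Per the file headers they come from Cell Ranger 7.0.0, and mm10 is named in the submitters' processing notes. The annotation and any normalization are not given in the sources used here, and the kits (version 2 ventral, version 3 proximal) and a target of 5000 cells come from the labels' protocols. Gene coordinates were taken from GENCODE M21 (GRCm38), in which all 55 identifiers were found, and promoters from RefSeq (GRCm38.p6).

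The software was scanpy 1.11.5 (igraph 0.11.9, anndata 0.12.19) under Python 3.11.15, with numpy 2.4.6, scipy 1.17.1, pandas 2.3.3 and matplotlib 3.10.9. Barcodes with under 500 genes or over 10% mitochondrial UMIs were removed (226 ventral, 635 proximal), then 7 and 4 cells called by Scrublet at an expected 0.8% per 1000 cells. That is 11 of 5704 cells, 0.193%, so the caller has not worked. Cells were scaled to 10000 UMIs and log-transformed, and 2000 variable genes without the 55 chains gave 30 principal components, 15 neighbours and Leiden clusters (resolution 1, seed 0), 15 ventral and 20 proximal. A cluster was given 1 of 20 class names, if 3 markers were found in 25% of cells and the 10 leading genes did not favour another class. Classes under 50 cells were not compared.

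UMIs were summed per class, with exact Poisson intervals for CPM, exact conditional intervals for ratios and Clopper-Pearson intervals for shares. The limit given for a share of 0 is 3 counts of the total. With 1 library per group there is no test. Up to 4 chains per family by UMIs, chains whose leading class is not that of most of their family, and up to 3 pathway genes per role were to be named. Other chains and genes given with values (Col4a3, Col4a4, Lama1, Col14a1, Fmod, Itga6 and Itgb4 among them) were chosen after their values were seen. The members and lists were chosen with earlier results of these data known. On simulated counts with 200 of 32285 genes raised 8-fold in 1 class, the leading-class rule recovered 100% in both libraries and called 0.056% (ventral) and 0% (proximal) of unchanged genes. Alternatives changed the cell filter, doublets, clustering, naming, pseudocount, minimum count, threshold, cell weighting, free RNA, secretion-rich cells and the richest cell, and 1 more, without basal-like cells that hold no basal marker, was chosen after seeing the data. Results of 1 chain and 1 other gene, which stay in the counts over all chains, are not reported here.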

Additional observations from a re-analysis of the deposited data

Results flagged for a closer look

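The order of basal-like and distal-luminal-like cells for Col4a6 was opposite in the 2 libraries. In the ventral library basal-like cells had 15.2 CPM and distal-luminal-like cells 0.0440, and in the proximal library they had 25.5 and 42.0. The classes hold different clusters in the 2 libraries: of the 4 proximal distal-luminal-like clusters, 5 and 16 had 117 and 61.7 CPM, whereas 3 and 9 had 1.00 and 5.63, below basal-like cells as in the ventral library. For Col4a1 the order of the luminal classes was opposite too. Proximal-luminal-like cells had 8.08 CPM and distal-luminal-like cells 2.18 in the ventral library, and 1.60 and 2.91 in the proximal one. The ventral 8.08 CPM (3.69 to 15.3) rests on 9 UMIs in 6 of 80 cells. Basal markers summed to 190 CPM in that class and 7.35 in ventral distal-luminal-like cells, and to 1280 and 62.6 in the same classes of the proximal library. Without Krt15 they summed to 8.08 and 2.09 in the ventral classes and to 31.5 and 16.5 in the proximal ones. The part of basal markers in the order was not tested. With 1 library per region neither difference was tested, and region cannot be told apart from kit.

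Col14a1, a fibril-associated collagen, was found in macrophage-like cells, which were not among the classes compared. It stood at 59.5 CPM in the ventral library, from 8 UMIs in 5 of 29 cells, and at 38.6 in the proximal library, from 38 UMIs in 22 of 79 cells, where fibroblast-like cells had 21.3. Fibroblast markers summed to 0 CPM in ventral and 13.2 CPM in proximal macrophage-like cells, with Lum and Pdgfra at 0 in both. Whether cells of another type contribute to the proximal value was not tested.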

How the results depend on the processing

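No paired analysis was possible because each region is 1 library. Of the 33 chain leads, 25 stayed at 1 or more under every alternative that gave a value, and 8 were under 1 in at least 1 (Col13a1, Col6a5, Lama3, Lama4, Col8a1, and in the ventral library Col4a4, Col7a1 and Col6a3). Naming each cell by its marker level turned the ventral luminal lead of Col6a3 to -0.50 and the basal-like log2 ratio of Col3a1 to 0.63, and gave 0 chains led by luminal cells in the ventral library, 0 by endothelial-like cells and 5 that differ in proximal-luminal-like cells, where 1, 2 and 3 were reported. A filter of 1000 genes and 5% mitochondrial UMIs gave 10 basement-membrane chains led by fibroblast-like cells in place of 6, since 41 endothelial-like cells were too few to compare. Endothelial-led chains were 1 with 200 genes and 20%, 1 with equal weight per cell, 0 at a threshold of 2 and 0 without the richest cell. Chains that differ in proximal-luminal-like cells were 7 with 200 genes and 20%, 6 at resolution 0.5, 5 at resolution 2, 5 with seed 1, 17 with a pseudocount of 1, 1 without cells of over 5% Sbp and Spink1 and 5 without the richest cell. In distal-luminal-like cells they were 16 with a pseudocount of 1 and 1 at a threshold of 2, in place of 4, and in basal-like cells 10 at a minimum of 10 UMIs and 1 at a threshold of 2, in place of 6. Ventral basal-led chains were 1 at a minimum of 200 UMIs, 16 at 10 and 4 at a threshold of 2, in place of 7. Ventral luminal-led chains were 2 with a pseudocount of 1, 2 without cells of over 5% Sbp and Spink1 and 2 without basal-like cells that hold no basal marker. Apart from the filter of 1000 genes and settings that change the rule itself, the cause of these moves was not tested. Clustering both libraries together named no ventral basal-like cells and gave no ventral or basal-like value, and the filter of 1000 genes left 48 ventral proximal-luminal-like cells and gave no value for that class. Shares of cells moved with the depth of thinning for all 7 examined. Depth limits chains of few UMIs most, above all in the 725410 UMIs of the ventral basal-like class.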
